A study of Homo sapiens with 20 samples.

Results

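The genes of cholesterol and fatty acid synthesis were examined in colorectal cancer (CRC) cells in which POLR1D had been silenced. The 30 genes were taken as the rows that carry their names in all 20 libraries, rows that share a name being summed. All 30 were found among 36346 gene names. They comprise 17 enzymes of sterol synthesis, 5 regulators or carriers of sterols and 8 enzymes that make, elongate or desaturate fatty acids. HT29 and SW480 are established human CRC cell lines. Both lines received either a scrambled control siRNA, SCR, or one of the siRNAs siPOLR1D2 and siPOLR1D3, which target POLR1D. In HT29 there were 4 SCR, 2 siPOLR1D2 and 2 siPOLR1D3 libraries, and in SW480 there were 6 SCR, 3 siPOLR1D2 and 3 siPOLR1D3 libraries. The knockdown is transient, SCR cells were transfected too, and HT29 carries a focal amplification of the chromosomal band of POLR1D whereas SW480 has gained the whole of chromosome 13. The values are read counts normalized with DESeq2 by the authors within each cell line, called normalized read counts here.

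Cholesterol is built from acetyl-CoA through mevalonate, the isoprenoid farnesyl diphosphate, squalene and lanosterol, and many of the enzymes are membrane proteins of the endoplasmic reticulum. Fatty acids are built from the same acetyl-CoA, which is carboxylated to malonyl-CoA and joined into palmitate, the substrate for elongases and desaturases. Both routes are controlled by the SREBP transcription factors, encoded by SREBF1 and SREBF2. When sterols are scarce, SCAP escorts the SREBP precursors to the Golgi for cleavage, and when sterols are plentiful, INSIG proteins hold SCAP back. SREBF2 acts mainly on the sterol genes and SREBF1 mainly on the fatty acid genes.

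POLR1D, a subunit shared by RNA polymerases I and III, was the gene targeted. In SW480 its normalized read counts ran from 1829 to 2599 with a median of 2030 in SCR and from 843 to 1336 with a median of 976 in silenced cells. The groups did not overlap, and POLR1D fell by 1.04 on the log2 scale (SE 0.13, adjusted p = 0.000991, limma, Benjamini-Hochberg adjusted across the tested genes). In HT29 the SCR libraries held 6036, 4711, 4433 and 5010 and the silenced libraries 3414, 3492, 2858 and 2550, also without overlap. The log2 fold change of -0.72 (SE 0.14) did not pass the threshold there (adjusted p = 0.355 from limma). The paper, which tested with DESeq2, lists POLR1D as lower after silencing in both lines.

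The library totals lay between 17.6 and 21.1 M (M, 1000000 normalized read counts) in HT29 and between 19.9 and 23.0 M in SW480. Some libraries stood apart. The first principal component of SW480, computed without the 30 genes, held 42.0% of the variance and put SCR 1 to 3 with siPOLR1D2 1 and 2 on one side, called the first side here, and SCR 4 to 6, siPOLR1D2 3 and all siPOLR1D3 libraries on the second side. The sign of the score sets the side in SW480. SCR 1 had the score smallest in size, 14.1, the rest of the first side lying between 52.7 and 71.5. The second side lay between -53.7 and -21.8. No fit placed SCR 1 on the second side. In HT29 the component held 43.3%, and SCR 1 lay far from the other 7 libraries. Of 9 colorectal epithelial markers, 8 reached 1 CPM (count per M of the library total) in HT29 SCR cells and 7 did in SW480 SCR cells, CDX2 being under that level in HT29 and KRT20 and LGALS4 in SW480. The paper, in contrast, describes CDX2 as expressed in both lines and lists its knockdown by siRNA in HT29 as successful. PTPRC and CD3E of the leukocytes, COL1A2 of the fibroblasts, PECAM1 and CDH5 of the endothelium and APOB of hepatocytes were under 1 CPM in SCR cells of both lines. LYZ reached that level in both lines, and COL1A1, PDGFRB, VWF and ALB did in SW480. No label says that libraries came from separate cultures, so p-values measure the spread between these libraries, which may be technical.

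SREBPs bind sterol regulatory elements beside CCAAT boxes, which NF-Y binds, and GC boxes, which SP1 binds. Promoter windows of RefSeq (GRCh38.p14), reaching from 250 bases before a transcription start to 50 bases after it, were found for 27 of the 30 genes, in 37 windows. FDFT1, SQLE and FASN had no entry. Both strands were searched for TCACNCCAC, CCAAT and GGGCGG, and in these windows no match of one motif overlapped a match of another. The letters TCACNCCAC were present in 1 of 37 windows (2.70%), that of SREBF2, and in 1.13% of all 35116 windows. CCAAT was present in 25 windows (67.6%) against 34.6% of all, and GGGCGG in 33 (89.2%) against 45.0% of all. The windows of SREBF2, chr22:41832855-41833154 on the plus strand, and of LSS, chr21:46228725-46229024 on the minus strand, show both arrangements. Capitals mark TCACNCCAC, 133 bases before the start, in SREBF2, and CCAAT and GGGCGG on either strand in LSS, which was picked for print after its values were seen.
SREBF2: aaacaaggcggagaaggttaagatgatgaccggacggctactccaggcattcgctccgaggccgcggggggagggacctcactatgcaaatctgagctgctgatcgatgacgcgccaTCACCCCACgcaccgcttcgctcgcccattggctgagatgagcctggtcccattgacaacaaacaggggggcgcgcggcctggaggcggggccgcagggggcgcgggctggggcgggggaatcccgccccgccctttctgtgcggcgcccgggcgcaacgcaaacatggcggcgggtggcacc
LSS: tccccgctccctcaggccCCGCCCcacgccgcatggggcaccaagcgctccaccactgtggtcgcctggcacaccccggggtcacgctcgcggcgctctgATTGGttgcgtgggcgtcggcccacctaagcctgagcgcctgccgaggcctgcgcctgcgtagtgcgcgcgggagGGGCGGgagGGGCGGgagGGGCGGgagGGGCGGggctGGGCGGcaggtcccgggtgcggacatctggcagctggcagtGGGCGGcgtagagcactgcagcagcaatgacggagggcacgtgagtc
The LSS window holds 7 matches to GGGCGG and 1 to CCAAT. A match describes the letters of the window and not a site in use.

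Levels in SCR cells came first. To compare genes, each value was expressed in CPM and divided by the length in kb of the longest coding transcript of the gene. The libraries were made by capture of the coding transcriptome. The order of genes may therefore also depend on how well each was captured, which is not known. The lines were normalized separately, so this comparison between them is a description without a test. The paper grew HT29 in Dulbecco's modified Eagle's medium and SW480 in RPMI medium. Line and medium therefore cannot be told apart in any comparison between the lines. The levels of 10 genes were higher in every HT29 SCR library than in every SW480 SCR library, against 15.4% of 15569 genes, and those of 4 genes were higher in every SW480 library, against 27.8%. The other 16 genes overlapped. With the values as deposited, not in CPM, 8 genes were higher in HT29 and 4 in SW480. The median difference between the lines, HT29 minus SW480 on the log2 scale of CPM, was 0.51 over the 30 genes and -0.19 over all genes.

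Among the sterol enzymes, 7 of 17 were higher in HT29 and none was higher in SW480. SQLE, squalene epoxidase, had the highest level in HT29, 167 ± 56.0 CPM per kb (SD, n = 4), and reached 24.5 ± 9.54 (SD, n = 6) in SW480. Its level in CPM was 6.81 times higher in HT29 and lay between 296 and 683 there, against 52.5 to 127 in SW480. IDI1, which makes the reactive isoprenoid unit, and FDFT1, squalene synthase, were 3.37 and 3.06 times higher in CPM in HT29. DHCR7, which catalyses the last step to cholesterol on one branch, was 2.38 times higher and NSDHL, a C4 demethylase, 2.01 times higher. MVD, a decarboxylase of the mevalonate route, and SC5D, a sterol desaturase, completed the 7. In SW480 the highest sterol enzyme was FDPS, farnesyl diphosphate synthase, at 102 ± 22.2 CPM per kb, and CYP51A1, the lanosterol demethylase, followed at 63.0 ± 24.4. Neither was separated between the lines, as FDPS had 87.4 ± 21.3 and CYP51A1 51.4 ± 6.30 in HT29. PMVK, TM7SF2 and MVD were low in both lines, between 5.34 and 8.77 CPM per kb, and IDI1 stood at 4.80 in SW480. FDPS, CYP51A1, HSD17B7, SCD and FADS2 have annotated pseudogenes, so the division of reads between copies is uncertain. The pseudogenes held a mean of 87.1 normalized read counts beside 483 for HSD17B7 and of 39.5 beside 3005 for FDPS.

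Of the regulators, SREBF2 exceeded SREBF1 in both lines. SREBF2 stood at 68.4 ± 5.61 CPM per kb in HT29 and 52.4 ± 7.16 in SW480, and SREBF1 at 24.0 ± 5.24 and 16.7 ± 2.60. SCAP and INSIG1 lay between 10.3 and 13.6 in both lines. STARD4, a carrier of cholesterol between membranes, was the exception and was 4.71 times higher in CPM in SW480, at 10.8 ± 4.57 CPM per kb against 2.29 ± 1.03.

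The fatty acid branch divided by line. ACACA, which makes malonyl-CoA, and SCD, the stearoyl-CoA desaturase, were higher in HT29, at 124 ± 21.1 and 130 ± 13.6 CPM per kb against 44.9 ± 5.89 and 70.1 ± 12.7 in SW480. FASN, fatty acid synthase, stood at 92.4 ± 20.0 in HT29 and 55.0 ± 16.99 in SW480, and its libraries overlapped. ACLY, the source of cytosolic acetyl-CoA, overlapped too, at 66.7 ± 15.8 and 86.1 ± 17.1. The desaturases of polyunsaturated fatty acids and ACSS2, which makes acetyl-CoA from acetate, went the other way. FADS1 had 0.749 ± 0.295 CPM per kb in HT29 and 19.1 ± 3.80 in SW480, and FADS2 had 0.140 ± 0.103 and 8.93 ± 2.90. The spans of FADS1 and FADS2 overlap on opposite strands. Reads from any transcribed bases that the 2 genes share can be told apart only as far as the counting used strand. The use of strand is not given in the sources used here. ACSS2 stood at 4.96 ± 1.38 in HT29 and 24.4 ± 3.04 in SW480. Measured per kb of coding sequence, SCD and not SQLE was the highest of the 30 genes in HT29, and in SW480 it replaced FDPS.

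**Figure D1:**
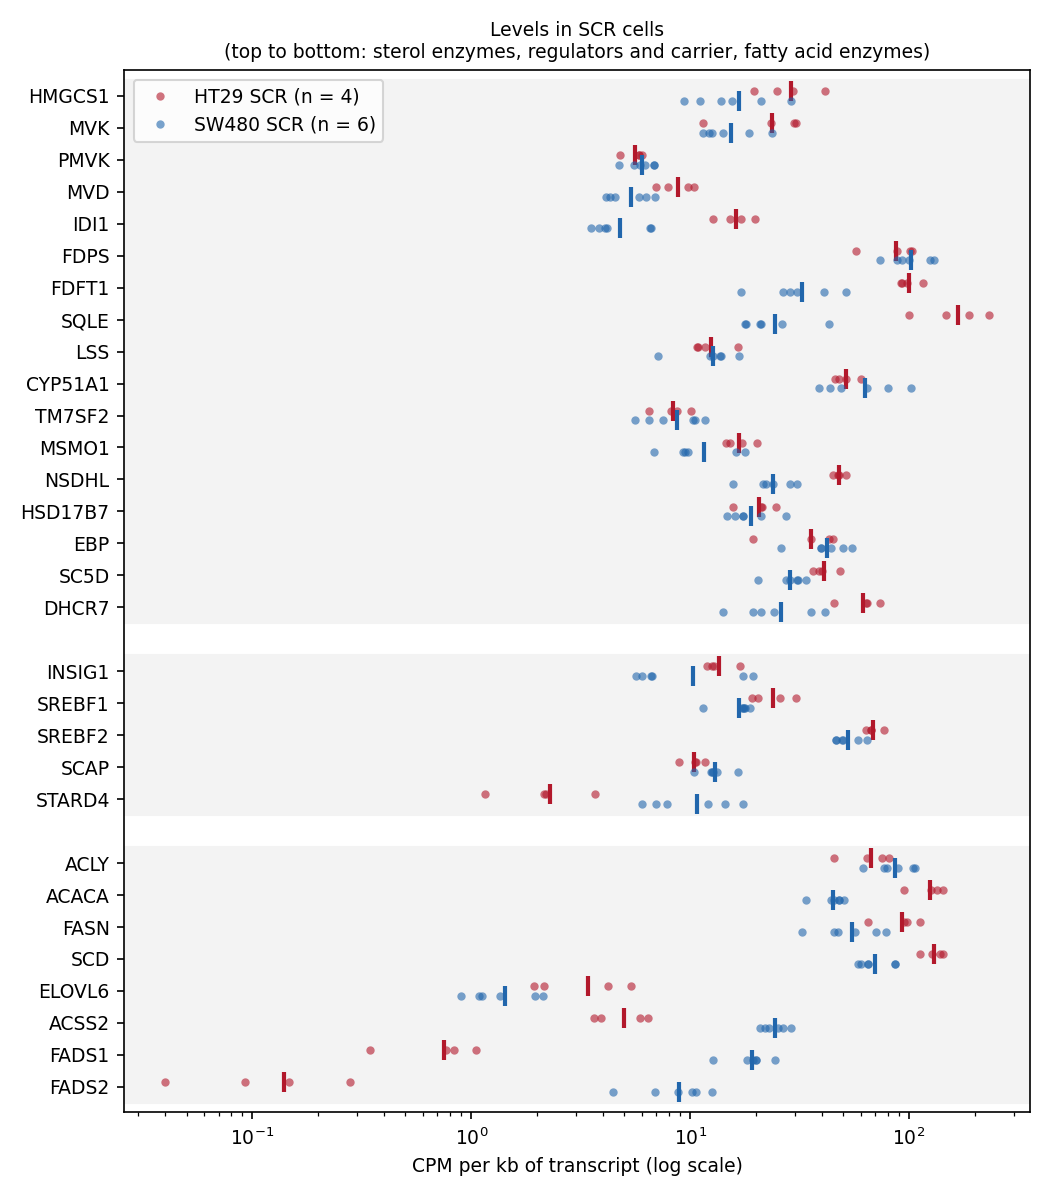
Levels of the 30 genes in SCR cells, as CPM per kb of the longest coding transcript, on a log axis. Points are single libraries (4 of HT29, 6 of SW480) and vertical marks their means. SQLE, IDI1 and FDFT1 lie farther right in HT29, and STARD4, ACSS2, FADS1 and FADS2 lie farther right in SW480.

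Next, it was asked whether POLR1D silencing moved these genes in SW480. The enzymes LSS, ACACA and FASN rose, and no member fell. These are 3 of 30 genes, or 1 sterol and 2 fatty acid enzymes, where 2.44% of 15019 genes tested were called higher and 4.29% lower (limma, adjusted p under 0.05). Called genes over the whole table split into 367 higher and 644 lower, a split that was 564 and 478 after upper quartile scaling. At an unadjusted p under 0.05, 5 members were higher and none lower, where 10.4% of all genes were higher and 12.8% lower. For 2 members, SREBF1 and ACACA, the groups did not overlap, as both lay in every silenced library above every SCR library, against 1.68% of all genes, and none lay below (2.88% of all genes).

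LSS, lanosterol synthase, closes squalene epoxide into the first sterol. Its normalized read counts in SW480 ran from 792 through a median of 1366 to 1898.5 in SCR and from 1767 through 2079 to 2875 in silenced cells. In 4 of the 6 silenced libraries it exceeded every SCR library. The gene rose by 0.68 on the log2 scale (SE 0.19, 1.60-fold, limma adjusted p = 0.0439, exact permutation test, 2-sided, p = 0.00649). LSS has 2 rows in the files, and these differed by 0.72 and 0.63. The gene overlaps 2 annotated transcripts on the opposite strand, and the counting by strand is not given.

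The other 16 sterol enzymes did not pass the threshold. HMGCS1, which makes HMG-CoA at the head of the route, ran from 742 through 1065 to 2296 in SCR and from 1377 through 1635 to 2153 in silenced cells, a log2 difference of 0.52 (SE 0.25, limma adjusted p = 0.228). All 6 silenced libraries lay above the SCR median, but none above every SCR library, since SCR 1 and 2 were high. DHCR7 had 846 to 2514 and a median of 1266 in SCR against 1406 to 3422 and a median of 2203, a log2 difference of 0.67 (SE 0.29, limma adjusted p = 0.19). SQLE ran from 1080 through 1347 to 2893 in SCR and from 1448 through 1675 to 2627 in silenced cells, with a log2 difference of 0.30 (SE 0.23). TM7SF2, a sterol reductase, ran from 218 through 335 to 407 and from 225 through 392 to 555, a log2 difference of 0.20. MVD had the lowest difference of the 17, -0.06 (SE 0.18), with SCR values from 165 to 290 and silenced values from 166 to 264. In total 15 of the 17 sterol enzymes had a positive log2 difference, with a median of 0.24, where 51.5% of all genes were positive with a median of 0.01.

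The regulators showed no common direction. SREBF1 ran from 1120 through 1603 to 1716 in SCR and from 1729 through 1898 to 2338 in silenced SW480 cells. The groups were apart (exact permutation test, 2-sided, p = 0.00216, the smallest that 6 against 6 allow), but the log2 difference of 0.34 (SE 0.12) did not pass the threshold over all genes (limma adjusted p = 0.0924). SCR 1 was the lowest library, with the other SCR libraries between 1501.5 and 1716. SREBF2 differed by 0.01 (SE 0.12), from 5053 through 5613 to 7821 in SCR and from 5531 through 5918 to 7429 in silenced cells. INSIG1, which anchors SCAP, ran from 356 through 436 to 1326 in SCR and from 359 through 517 to 662 in silenced cells. Its log2 difference of -0.23 (SE 0.33) was smaller than the spread between SCR libraries, of which SCR 1 and 2 held 1208 and 1326 and the other 4 at most 453. STARD4 ran from 623 through 992 to 1618 in SCR and from 544 through 674 to 1066 in silenced cells, a log2 difference of -0.46 (SE 0.24, limma adjusted p = 0.28). SCAP differed by 0.11 (SE 0.11).

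In the fatty acid branch ACACA and FASN, which act one after the other on the way to palmitate, were called. ACACA ran from 7580 through 10104 to 10885 in SCR and from 11390 through 13532 to 14898 in silenced SW480 cells, with no overlap. It rose by 0.45 on the log2 scale (SE 0.11, 1.37-fold, limma adjusted p = 0.0273, exact permutation p = 0.00216). Its 2 rows differed by 0.43 and 0.49. FASN ran from 6223 through 9182 to 15355 in SCR and from 13428 through 17619 to 22261 in silenced cells, and 4 of 6 silenced libraries exceeded every SCR library. It rose by 0.82 (SE 0.21, 1.77-fold, limma adjusted p = 0.0328, exact permutation p = 0.013). SCD, which acts on the product of FASN after its elongation, ran the other way, from 6565 through 7294 to 10650 in SCR and from 5962 through 6822 to 7200.5 in silenced cells. Its log2 difference of -0.26 (SE 0.13) did not pass the threshold (limma adjusted p = 0.243), and all 6 silenced libraries lay below the SCR median. ELOVL6, the elongase of palmitate, ran from 121 through 174 to 314 in SCR and from 162 through 247 to 419 in silenced cells, with a log2 difference of 0.40 (SE 0.31). ACSS2 ran from 1291 through 1611 to 2008 and from 1034 through 1382 to 2476, a log2 difference of -0.12 (SE 0.20). ACLY, FADS1 and FADS2 had log2 differences of -0.04, 0.10 and 0.36, none past the threshold. In this class 5 of 8 differences were positive, with a median of 0.23, which was 0.0913 without SCR 3, 0.41 within the first side of the component described above and 0.10 within the second.

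**Figure D2:**
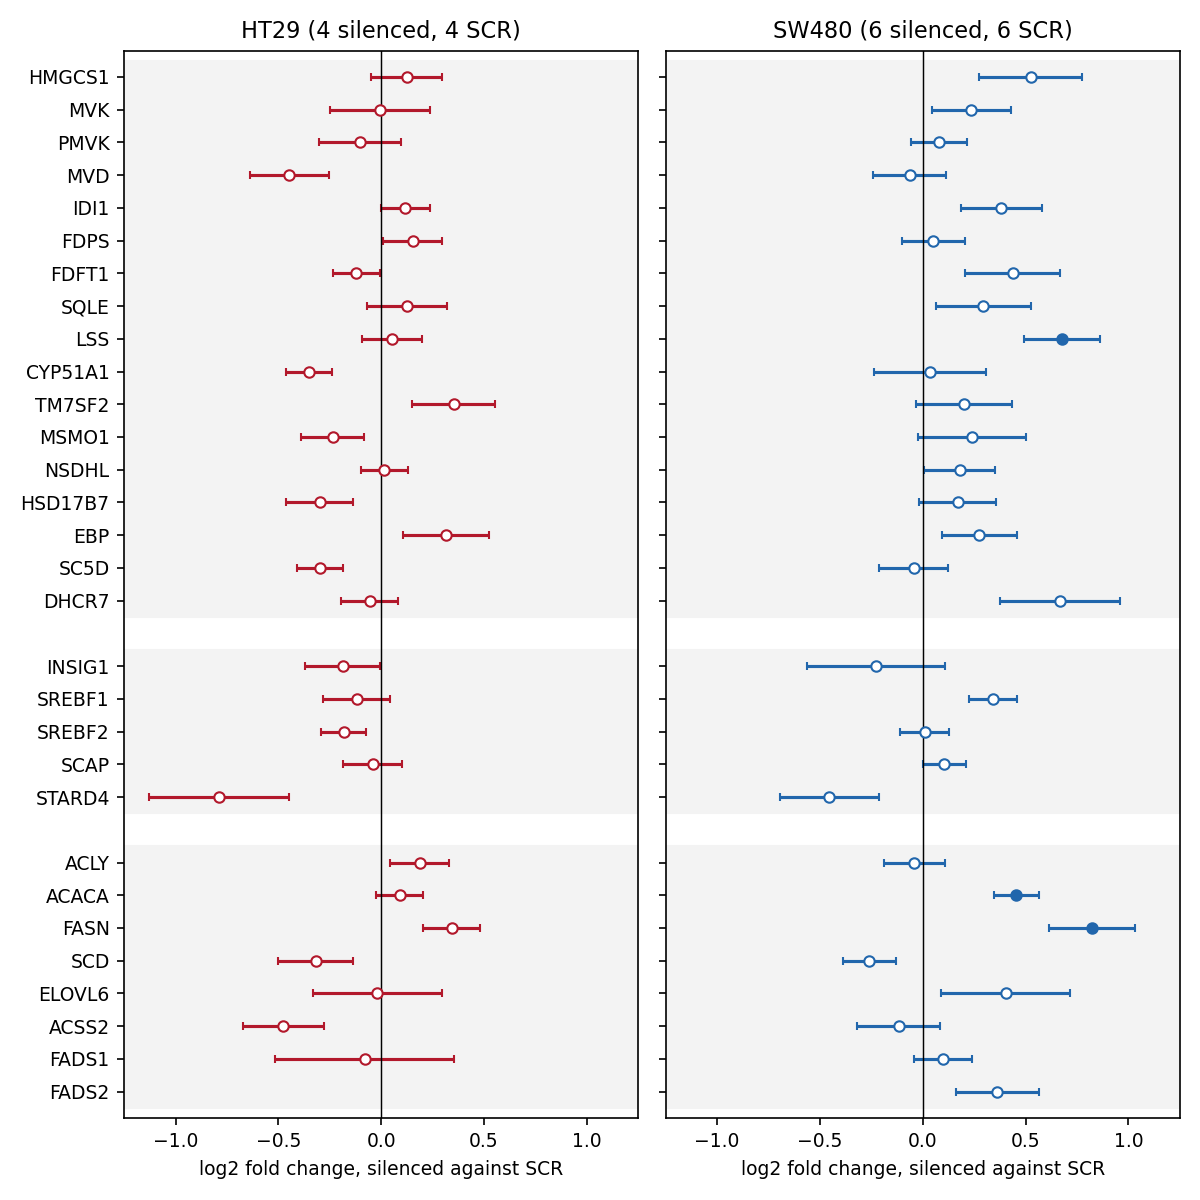
Log2 fold change of POLR1D-silenced against SCR cells for each gene in HT29 (29 genes tested, 4 against 4 libraries) and SW480 (30 genes, 6 against 6), with SE as bars. Filled points have an adjusted p under 0.05 (limma). Only LSS, ACACA and FASN in SW480 are filled.

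The 3 calls in SW480 were near the threshold and depended on single libraries. In fits that dropped 1 library each, the adjusted p of limma stayed under 0.05 in 7 of 12 fits for ACACA, 4 of 12 for FASN and 4 of 12 for LSS, while the log2 differences stayed between 0.39 and 0.50, 0.69 and 0.95, and 0.53 and 0.78. The ACACA call was lost without SCR 3, 5 or 6, siPOLR1D2 3 or siPOLR1D3 1, with adjusted p between 0.0517 and 0.0621. The LSS call was lost without SCR 3, 4, 5 or 6, siPOLR1D2 3 or any siPOLR1D3 library (adjusted p between 0.0657 and 0.0935), and the FASN call without SCR 3, 4, 5 or 6, siPOLR1D2 1 or 3, or siPOLR1D3 1 or 3 (adjusted p between 0.0519 and 0.0746).

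The SW480 result was also looked at by side of the first component. The sides come from the expression of these same libraries, silenced ones included, and not from a label. Whether a side itself reflects silencing was not tested. Among SCR libraries the log2 difference between the sides, second minus first, ran over the sterol enzymes from -1.02 for CYP51A1 to 0.60 for TM7SF2, with -0.01 for LSS, and was not tested. The median of the sterol enzymes was low in SCR 3, -0.32 relative to the SCR mean, although that library lay on the first side, while its CYP51A1, at 4648, was above the second-side SCR libraries, which reached 3304. Within the second side, 4 silenced against 3 SCR libraries, 6 members rose and 1 fell, where 5.59% and 7.04% of all genes did (limma). HMGCS1 rose by 0.83 (SE 0.19), IDI1 by 0.73 (SE 0.16), FDFT1 by 0.54 (SE 0.16), SQLE by 0.46 (SE 0.11), LSS by 0.81 (SE 0.13) and FASN by 0.98 (SE 0.17), and STARD4 fell by 0.76 (SE 0.19). Here 16 of the 17 sterol enzymes had a positive difference, with a median of 0.40. Within the first side, 2 silenced against 3 SCR libraries, no member passed the threshold, and no gene of the whole table did (0%). There the log2 differences were 0.42 (SE 0.35) for LSS, 0.61 (SE 0.21) for ACACA, 0.68 (SE 0.38) for FASN, 0.20 (SE 0.42) for HMGCS1 and 0.04 (SE 0.27) for IDI1, and 10 of 17 sterol enzymes were positive, with a median of 0.0869. With the side as a covariate LSS, ACACA and FASN stayed called, at 0.65, 0.47 and 0.85, and STARD4 fell by 0.58 (SE 0.15, limma adjusted p = 0.0234), where 5.41% of all genes were called higher and 7.86% lower. ACACA was not called within either side alone. The silenced libraries of the first side were siPOLR1D2 1 and 2, and those of the second were siPOLR1D2 3 and all siPOLR1D3 libraries. A difference between the sides thus cannot be told apart from one between the siRNAs. Whether the sides differ in response was not tested.

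**Figure D3:**
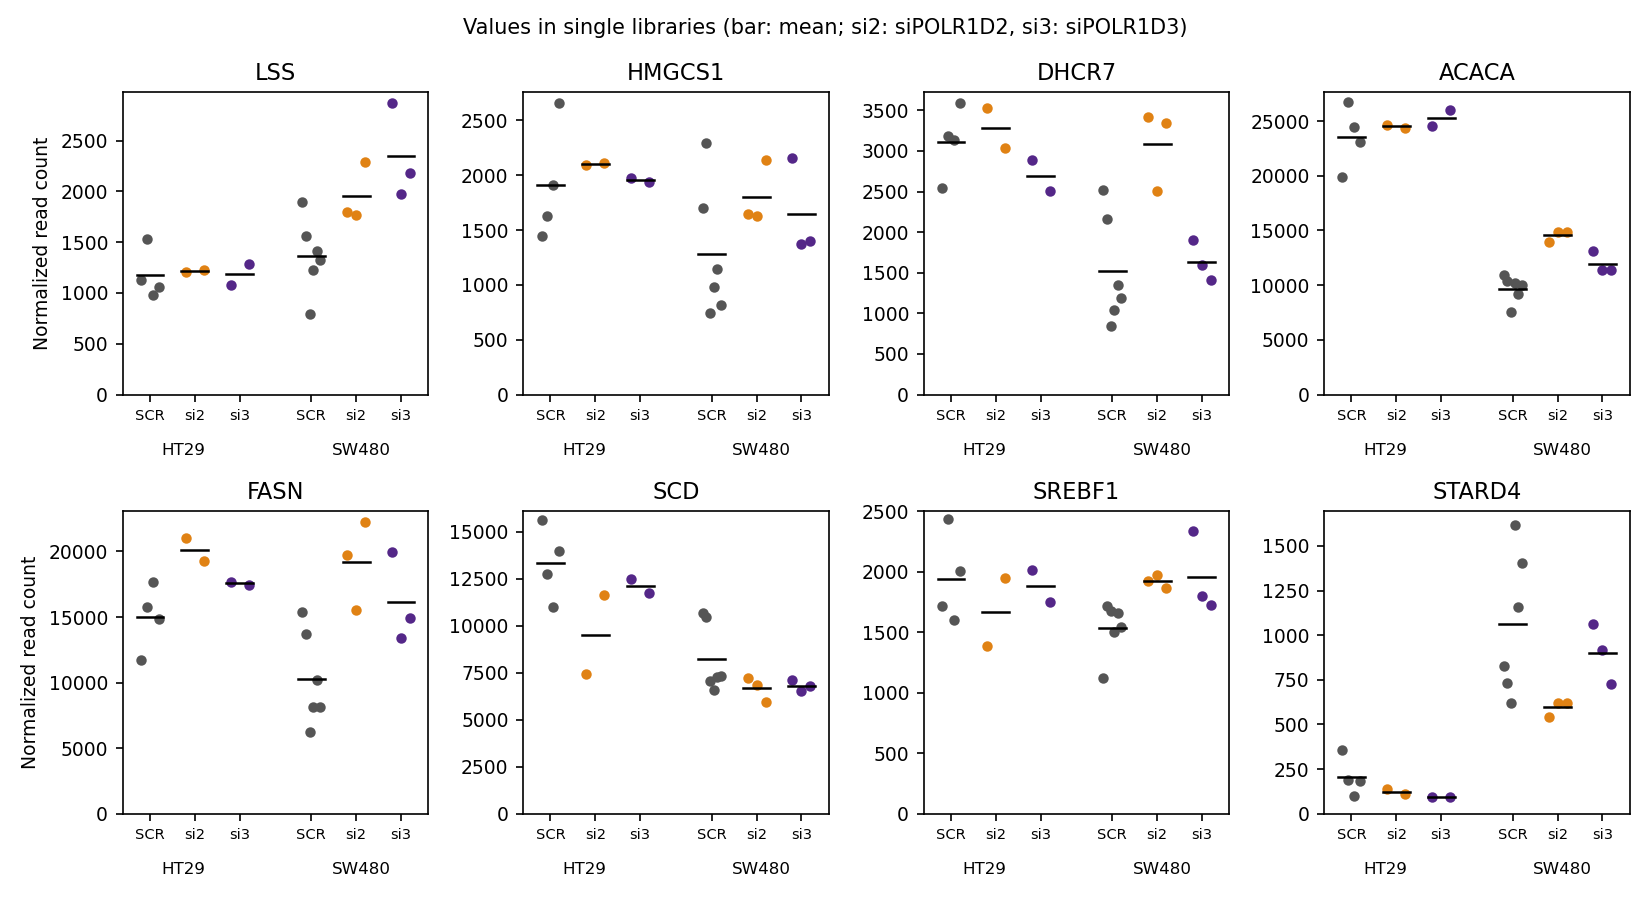
Normalized read counts of 8 genes in each of the 20 libraries, with the mean of each group as a bar, on linear axes that start at 0. In SW480 all silenced libraries of ACACA and SREBF1 lie above all SCR libraries, while the SCR libraries of HMGCS1 and DHCR7 spread widely.

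In HT29, no member passed the threshold in either direction, and neither did any of the 13274 genes tested (0%). At an unadjusted p under 0.05 from limma, 1 member was higher and 5 were lower, where 4.66% of all genes were higher and 6.05% lower. The smallest adjusted p among the 29 members tested was 0.408. FADS2 was not tested, with values from 2.03 to 18.6 over the 8 libraries. CYP51A1 and SC5D lay in every silenced library below every SCR library, against 4.17% of all genes, and no member lay above (2.72%).

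CYP51A1 held 3483, 2886, 2709 and 3543 in SCR 1 to 4 and 2401, 2554, 2390.3 and 2488 in the silenced libraries, a log2 difference of -0.35 (SE 0.11). For SC5D the SCR values were 1884, 1833, 1754 and 2186 and the silenced values 1708, 1617, 1489.8 and 1409.8, a log2 difference of -0.30 (SE 0.11). Both pairs of groups were apart, which was why these genes were picked. Any gene so separated gets the smallest exact permutation p of 4 against 4, 0.0286 (2-sided), so this p adds nothing. Neither gene passed the threshold (limma adjusted p = 0.408 for CYP51A1 and 0.43 for SC5D). MVD had the lowest difference of the sterol enzymes, with 400.5, 333, 234 and 266 in SCR against 244, 228, 180.3 and 238, a log2 difference of -0.45 (SE 0.19), SCR 1 being the highest library. TM7SF2 had the highest, with 236, 264, 319 and 275 in SCR against 235, 377, 445 and 371, a log2 difference of 0.35 (SE 0.20). The groups of the other named sterol enzymes overlapped. LSS held 1129, 1527, 977 and 1056 in SCR and 1202, 1229, 1083 and 1281 in silenced cells, and DHCR7 2541, 3179.6, 3138 and 3588 against 3533, 3037, 2882 and 2512. HMGCS1 held 1446, 1632, 1911 and 2663 in SCR and 2091, 2111, 1975 and 1937 in silenced cells, inside the range of SCR. SQLE did too, at 6241, 8204, 10262 and 12532 against 10045, 10760, 9755 and 8864. Of the 17 sterol enzymes 8 had a positive difference, with a median of -0.01, where 50.02% of all genes were positive.

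All 5 regulators had a negative difference in HT29, with a median of -0.18 where that of all genes was 0.00, and none passed the threshold. By siRNA, all 5 were negative with siPOLR1D2, with a median of -0.24, and 3 of 5 with siPOLR1D3, with a median of -0.02. Without siPOLR1D2 1 the median was -0.0159. STARD4 had the largest, -0.79 (SE 0.34, limma adjusted p = 0.454), from 355, 189, 98.2 and 181 in SCR to 138, 108, 95.1 and 93.5 in silenced cells. Without SCR 1, its highest library and the one far from the other 7, the difference was -0.48. SREBF2 went from 7600, 7678, 6242 and 6578.5 to 5609.5, 6248, 6694 and 6155, a log2 difference of -0.18 (SE 0.11), and SREBF1 from 1718, 2436, 1598 and 2004 to 1390.4, 1950.2, 2019 and 1755.5, a difference of -0.12. INSIG1 held 758, 711, 712 and 935 in SCR and 477, 713, 747 and 841 in silenced cells, where siPOLR1D2 1 was below every SCR library and the others overlapped. SCAP differed by -0.04 (SE 0.14).

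Of the 7 fatty acid enzymes tested in HT29, 3 had a positive difference, with a median of -0.02. FASN held 11691, 15764, 17674 and 14856 in SCR and 21040, 19242, 17650 and 17478 in silenced cells. All 4 silenced libraries were above the SCR median and 2 above every SCR library, and the log2 difference of 0.34 (SE 0.14) did not pass (limma adjusted p = 0.445). ACACA was flat, at 19879, 26709, 24483 and 23048 against 24652, 24415, 24587 and 25983, a log2 difference of 0.09. SCD held 15596, 12726, 11009 and 13985 in SCR against 7407, 11622, 12454 and 11755, a log2 difference of -0.32 (SE 0.18), with siPOLR1D2 1 far below the others. ACSS2 had the lowest difference, -0.48 (SE 0.20), from 235, 367, 221 and 331 to 171, 198, 239.5 and 206, 3 of the 4 silenced libraries being below every SCR library. ELOVL6 held 263, 259, 498 and 634 in SCR and 538, 388, 297 and 329.5 in silenced cells, a log2 difference of -0.02 (SE 0.31).

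The siRNAs were then compared. Each was set against all SCR libraries of its line, so the comparisons share their controls. In SW480, 4 members were called higher with siPOLR1D2, where 3.16% of all genes were called higher and 5% lower, and no member was called lower. Without adjustment, at a p under 0.05, 7 were higher and 1 lower, against 11.6% and 13.4% of all genes. The 4 were DHCR7 by 1.12 (SE 0.30, limma adjusted p = 0.0368), ACACA by 0.60 (SE 0.12, limma adjusted p = 0.00939), FASN by 0.95 (SE 0.26, limma adjusted p = 0.04) and ELOVL6 by 0.99 (SE 0.28, limma adjusted p = 0.0474). The 3 siPOLR1D2 libraries held 3422, 2502 and 3342 for DHCR7, 396, 419 and 323 for ELOVL6, 13984, 14898 and 14888 for ACACA, and 19710, 15527 and 22261 for FASN. For all of these but DHCR7, every siPOLR1D2 library exceeded every SCR library, and for DHCR7 2 of 3 did. In fits that dropped 1 library each, the ACACA call was kept in 12 of 12 fits and the calls of DHCR7, FASN and ELOVL6 in 3 of 12 each. The calls of DHCR7, FASN and ELOVL6 were lost without SCR 4, 5 or 6 or any siPOLR1D2 library, at adjusted p of up to 0.135, 0.129 and 0.149, and that of FASN also without SCR 3. DHCR7 and ELOVL6 were lost too without any of the siPOLR1D3 libraries, and FASN without siPOLR1D3 2 or 3, which enter through the shared estimate of the spread.

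With siPOLR1D3 no member was called in SW480 (limma), where 2.15% of all genes were called higher and 4.45% lower. At an unadjusted p under 0.05, 5 were higher and none lower, against 11.2% and 13.8% of all genes. LSS came nearest, at 2875, 1972 and 2185, a log2 difference of 0.81 (SE 0.22, limma adjusted p = 0.0505), against 1797, 1767 and 2291 with siPOLR1D2, where the difference was 0.55 (SE 0.22). FASN had 19993, 13428 and 14952 with siPOLR1D3, a log2 difference of 0.70 (SE 0.26, limma adjusted p = 0.119), and ACACA 13079, 11407 and 11390, a difference of 0.31 (SE 0.12, limma adjusted p = 0.123). DHCR7 held 1904.5, 1594 and 1406, inside the SCR range, with a difference of 0.21 (SE 0.30), and ELOVL6 held 162, 170.03 and 171, also inside it, with a difference of -0.18 (SE 0.28). STARD4 stood at 544, 623 and 620.1 with siPOLR1D2 and 1066, 917 and 724 with siPOLR1D3, log2 differences of -0.75 (SE 0.27) and -0.16 (SE 0.27). SCD differed by -0.28 and -0.24 and SREBF1 by 0.34 and 0.35.

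The direct test of siPOLR1D2 against siPOLR1D3 called no member in SW480, where 1.69% of all genes were called higher and 1.62% lower with siPOLR1D2 (limma). Unadjusted, 3 had a p under 0.05 and were higher and 1 was lower, against 11.1% and 10.7% of all genes. The smallest adjusted p was that of ELOVL6, 0.0646 from limma, for a log2 difference of 1.17 (SE 0.32), followed by SC5D at 0.55 (SE 0.19) and DHCR7 at 0.91 (SE 0.34). A p that misses the threshold does not show that the siRNAs acted alike on the other members. All siPOLR1D3 libraries lay on the second side of the first component and 2 of 3 siPOLR1D2 libraries on the first. In the siPOLR1D2 library on the second side, DHCR7 held 3342 and ELOVL6 323, above the SCR libraries of that side, which reached 1348.5 and 147, and above the siPOLR1D3 libraries, which reached 1904.5 and 171. These are values of 1 library, and the cause of the difference was not tested. The side was also added as a covariate to the fits of each siRNA, a choice made after seeing the data. The direct test then again called no member (limma), where 0.579% of all genes were called higher and 0.839% lower, and at an unadjusted p under 0.05 ELOVL6 (0.67, SE 0.23) and SC5D (0.67, SE 0.20) were higher with siPOLR1D2. Against SCR, DHCR7, ACACA, FASN and ELOVL6 were also called higher with siPOLR1D2 in this fit, by 1.08, 0.61, 0.93 and 0.86, and STARD4 fell by 0.63 (SE 0.19, limma adjusted p = 0.0383), where 6.05% of all genes were called higher and 8.87% lower. With siPOLR1D3 no member was called (limma), against 2.14% and 3.77% of all genes, and 5 were higher and 2 lower at an unadjusted p under 0.05. In HT29 no member was called with siPOLR1D2, with siPOLR1D3 or between them, and no gene of the table was (limma, 0% in each). At an unadjusted p under 0.05, 1 member was higher and 3 lower with siPOLR1D2, against 1.66% and 2.7% of all genes, and 1 and 3 with siPOLR1D3, against 3.74% and 4.02%. Between the siRNAs there was no such member, against 0.482% and 1.08%. There FASN differed from SCR by 0.44 (SE 0.17) with siPOLR1D2 and 0.24 (SE 0.17) with siPOLR1D3, and SCD by -0.51 (SE 0.21) and -0.13 (SE 0.21).

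**Figure D4:**
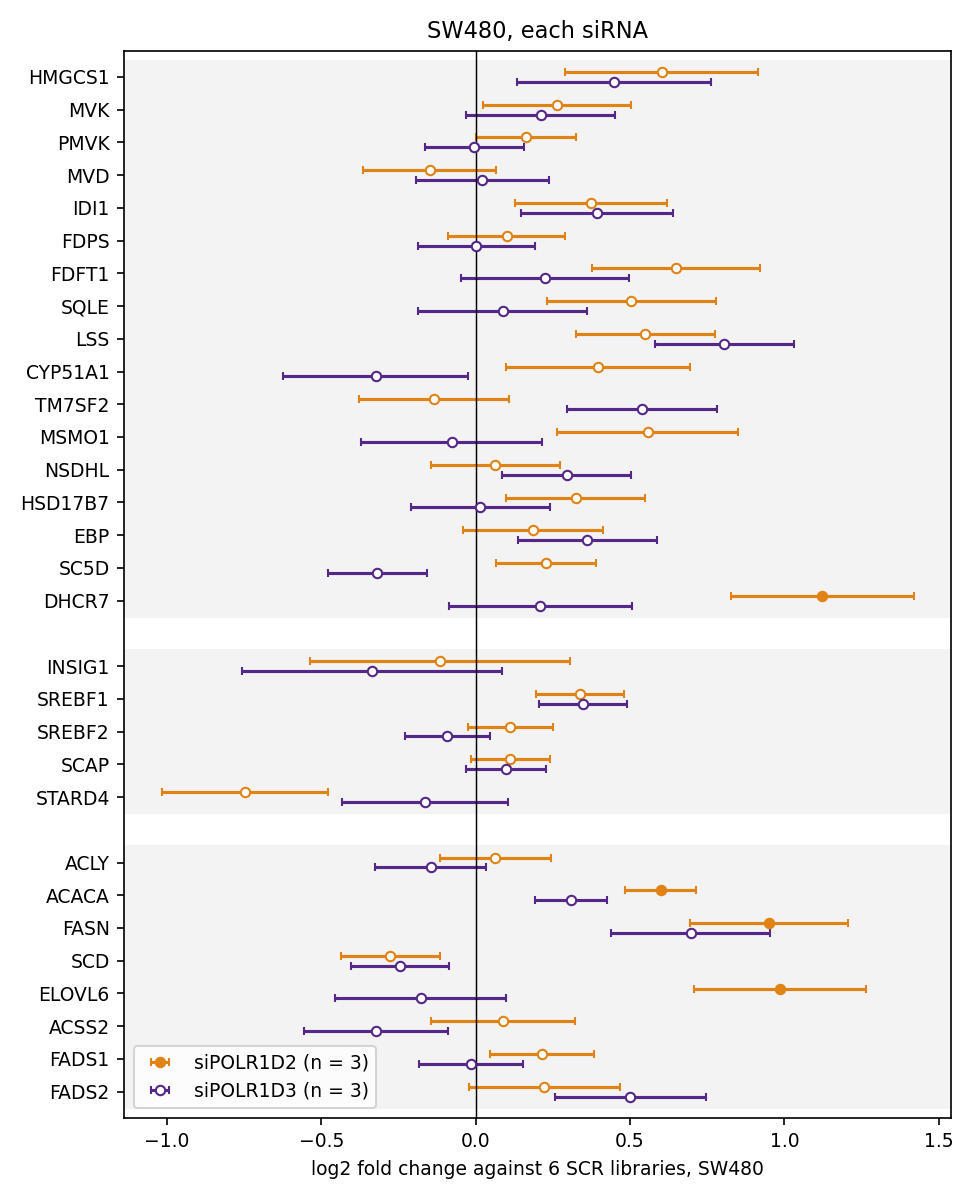
Log2 fold change against 6 SCR libraries in SW480 for siPOLR1D2 and siPOLR1D3 (3 libraries each), with SE as bars. Filled points have an adjusted p under 0.05 (limma), which holds for DHCR7, ACACA, FASN and ELOVL6 with siPOLR1D2 and for no gene with siPOLR1D3.

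The difference in response between the lines was tested as an interaction over all 20 libraries. No member was called (limma), where 0.0247% of 16203 genes were called more positive in SW480 and 0.0123% less. At an unadjusted p under 0.05 from limma, LSS (0.63, SE 0.26), SREBF1 (0.46, SE 0.20) and ACACA (0.36, SE 0.16) were more positive in SW480, and no member was less, where 4.04% and 4.24% of all genes were. Their adjusted p were at least 0.526. The difference, SW480 minus HT29, was positive in 25 of 30 members, with a median of 0.30, where the median of all genes was 0.00. The call of LSS, ACACA and FASN in SW480 alone is thus not shown to differ from HT29.

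The sterol and the fatty acid branch were set side by side in each library, as the median over their genes of the log2 value minus the SCR mean of the line. The sterol median was 0.49 and 0.48 in SCR 1 and 2 and between -0.32 and -0.14 in SCR 3 to 6, and the fatty acid median was 0.28 and 0.35 in the former and between -0.38 and -0.04 in the latter. The silenced libraries had sterol medians of 0.27, 0.25 and 0.43 with siPOLR1D2 and 0.37, 0.08 and 0.00 with siPOLR1D3, all above SCR 3 to 6 and all below SCR 1 and 2. Their fatty acid medians were 0.30, 0.44 and 0.36 with siPOLR1D2 and 0.07, -0.06 and -0.15 with siPOLR1D3. The sterol median exceeded the fatty acid median in all 3 siPOLR1D3 libraries, by 0.30, 0.14 and 0.15, and in 1 of 3 siPOLR1D2 libraries, where the differences were -0.03, -0.19 and 0.07. In SCR the same difference ran from -0.11 to 0.21, being positive in SCR 1 to 3 and negative in SCR 4 to 6. Against SCR, 13 of 17 sterol and 3 of 8 fatty acid enzymes were positive with siPOLR1D3, and 15 of 17 and 7 of 8 with siPOLR1D2. In HT29 the sterol median lay between -0.09 and 0.19 and the fatty acid median between -0.26 and 0.20, with silenced libraries inside the range of SCR for the fatty acid branch. The spread among SW480 SCR libraries, as the median SD of the log2 value, was 0.42 for sterol enzymes and 0.32 for fatty acid enzymes against 0.33 over all genes, and in HT29 it was 0.21 and 0.28 against 0.32.

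**Figure D5:**
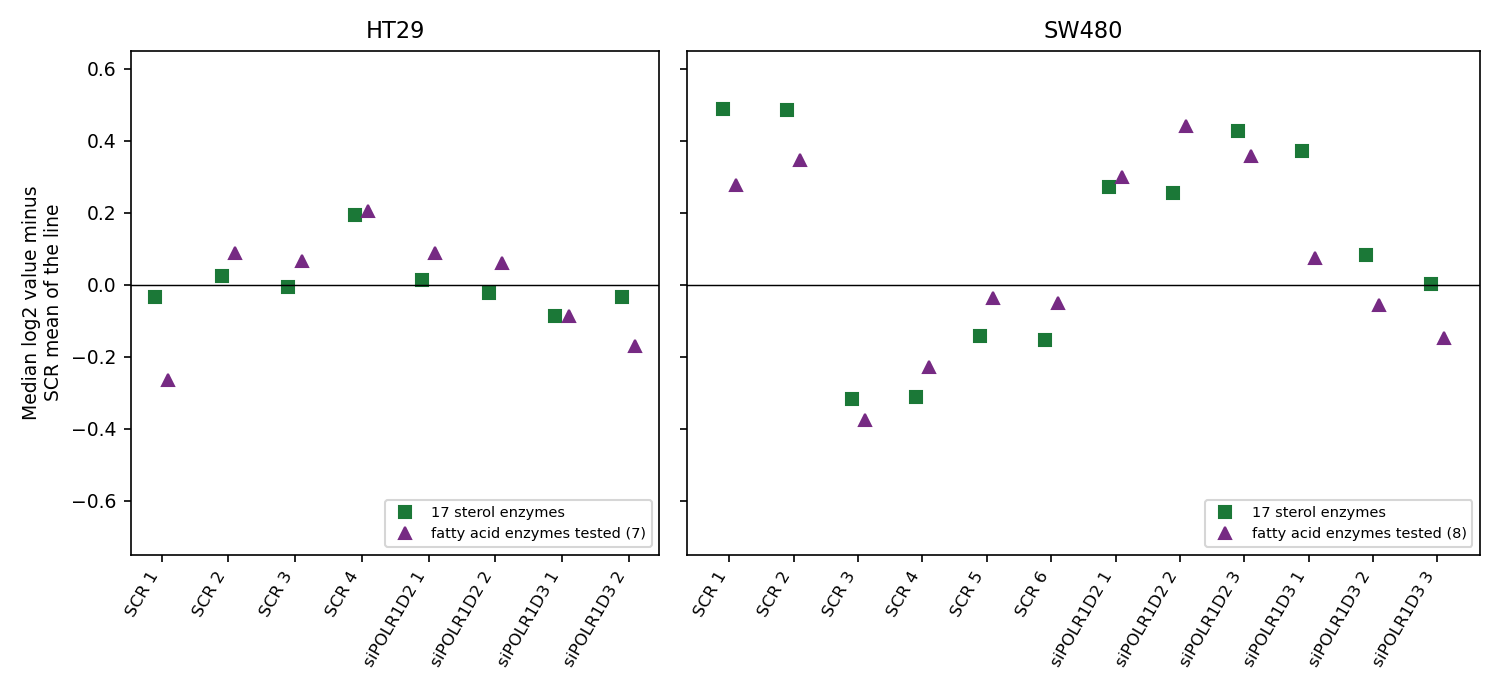
Median over the sterol enzymes (squares) and the fatty acid enzymes (triangles) of the log2 value minus the SCR mean of the line, in each library. SCR 1 and 2 of SW480 lie highest for the sterol enzymes, at 0.49 and 0.48, above every silenced library.

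Other genes of the 2 routes were taken from lists of 23 on the sterol side and 25 on the fatty acid side. In SW480, 1 gene of the sterol side and none of the fatty acid side passed the threshold, where 2.44% of all genes were called higher and 4.29% lower. With the side as a covariate, 2 of the sterol side were called lower, and 3 of the fatty acid side higher and 2 lower, against 5.41% and 7.86% of all genes. INSIG2, the second INSIG protein, fell by 0.86 (SE 0.21, limma adjusted p = 0.0269), from 307 to 620.3 with a median of 453 in SCR to between 195 and 420.5 with a median of 212.5 in silenced cells, and 5 of 6 silenced libraries were below every SCR library. Its call was kept in 6 of 12 fits that left out 1 library, being lost without SCR 4 or 6, siPOLR1D2 3 or any siPOLR1D3 library, at an adjusted p of up to 0.0616. In HT29 INSIG2 went from 543, 422, 392.5 and 366 to 286, 260.5, 277 and 257, without overlap, and its log2 difference of -0.66 (SE 0.15) did not pass the threshold (limma adjusted p = 0.355). The paper, which tested with DESeq2, lists INSIG2 as lower after silencing in both lines. Of the sterol side 13 of 23 were positive in SW480 with a median of 0.04, and of the fatty acid side 13 of 25 with a median of 0.04. With siPOLR1D2, DGAT2, an enzyme of triglyceride synthesis, rose by 1.203 and FABP5, a fatty acid binding protein, by 1.00, and ACSL4, which activates polyunsaturated fatty acids, fell by 1.05 (limma, adjusted p under 0.05 for each). With siPOLR1D3, the elongase ELOVL7 rose by 1.56, and INSIG2, GGPS1, which makes geranylgeranyl diphosphate, the elongase ELOVL5 and the malic enzyme ME1 fell by 0.97, 0.58, 0.52 and 0.65. The share of all genes called higher and lower was 3.16% and 5% with siPOLR1D2 and 2.15% and 4.45% with siPOLR1D3. With the side as a covariate, siPOLR1D3 called none of the sterol side and 2 of the fatty acid side, both lower (limma). The calls of ELOVL7, INSIG2 and GGPS1 were thus lost, where 2.14% of all genes were higher and 3.77% lower. In that fit siPOLR1D2 called 2 of the sterol side higher and 2 lower, and 2 of the fatty acid side higher and 1 lower, against 6.05% and 8.87%. Between the siRNAs, 2 genes of the sterol side were called higher and 2 lower with siPOLR1D2, and 1 of the fatty acid side higher and 1 lower, against 1.69% and 1.62% of all genes (limma). The log2 differences, siPOLR1D2 minus siPOLR1D3, were 0.76 for GGPS1, 0.99 for the nuclear receptor NR1H2, -0.46 for LBR, a sterol reductase of the nuclear envelope, -1.35 for NPC2, a lysosomal cholesterol carrier, 0.61 for ELOVL5 and -0.83 for ACSL4. With the side as a covariate, this comparison called none of the sterol side and 1 of the fatty acid side, lower with siPOLR1D2 (limma). The shares of all genes were then 0.579% higher and 0.839% lower. In HT29, 22 and 23 of these genes were tested, and none passed (limma), with 4 of each side lower and none higher at an unadjusted p under 0.05, against 6.05% and 4.66% of all genes.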

How the data were processed

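RNA-seq of 20 libraries was analysed. The authors captured the coding transcriptome with the TruSeq RNA Exome kit, sequenced paired-end reads and quantified them with kallisto, and the tools in the submitters' processing notes are FastQC 0.11.5, kallisto 0.44.0 and DESeq2 1.24.0, with build hg38. The kallisto index and any use of strand are not given in the sources used here. The deposited values are a signal, since the authors had scaled the read counts by DESeq2 separately for each line. They are neither whole numbers nor, for most genes, whole multiples of one step per library, so no count test was applied, no intervals were derived, and the reads behind a gene are unknown.

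Rows sharing a gene name were summed, which concerned FDFT1, LSS and ACACA among the 30 genes. limma 3.58.1 in R 4.3.3 was run on log2(value + 1), with a mean-variance trend, on each line alone, silenced against SCR without covariate. A gene was tested if 4 libraries or more (HT29 and the interaction), or 6 or more (SW480), held values of 10 or higher, and p-values were adjusted by Benjamini-Hochberg over all of them, with 0.05 as the threshold. Fold changes on this scale understate changes of low genes. Each siRNA was tested in a fit of the 3 groups of a line. Exact permutation tests, 2-sided, compared group means of the log2 values. The fit was tested on simulated data. Gene coordinates and lengths came from GENCODE 29, and promoters from RefSeq (GRCh38.p14).

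The 30 genes, the gene lists and the tests were chosen with earlier results of these data known. Genes named with values in each library were POLR1D, members past the threshold in any comparison, the largest rise and fall in each class and line, and INSIG1, SREBF1, SREBF2, HMGCS1, SQLE, FASN and SCD. CYP51A1 and SC5D in HT29 were added after their values were seen. Alternatives were other pseudocounts, filters and scalings, the trend, the replicate number as a block, the sides of the first component and each library left out. The side as a covariate in the fits of each siRNA was chosen after seeing the data. Values of some genes on the lists are not reported here.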

Additional observations from a re-analysis of the deposited data

Results flagged for a closer look

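In groups of 4 to 10 libraries, the gap of the highest or lowest library to its neighbour, as a share of the range of the group, was set against Dixon's critical value. Of 118 groups of the 30 genes, 3 had such a library, where chance flags about 1 in 20. In SW480 SCR 1, SREBF1 was the lowest at 1120, the other 5 SCR libraries lying between 1501.5 and 1716. In the silenced HT29 cells, ACACA was highest in siPOLR1D3 2 at 25983, the others lying between 24415 and 24652. In the same group SCD was lowest in siPOLR1D2 1 at 7407, the others lying between 11622 and 12454. The cause was not tested.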

How the results depend on the processing

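In SW480 the count of members called higher, 3, was 1 without a filter on low values, 1 without the trend, 0 with the replicate block, 0 within the first side and 6 within the second, and between 0 and 3 with each library left out. The count called lower, 0, was 1 with the side as a covariate and 1 within the second side. With siPOLR1D2 the 4 called higher became 0 with the replicate block and ranged from 1 to 5 with a library left out, and the 0 called lower from 0 to 1, being 1 with the side as a covariate, a fit added after the data had been seen. With siPOLR1D3 the 0 called higher became 1 with a pseudocount of 5 and 1 with upper quartile scaling, and ranged from 0 to 2 with a library left out, and the 0 called lower became 1 with the replicate block. Between the siRNAs the count ranged from 0 to 1. In HT29 the 0 called lower became 1 with the replicate block, and the regulators' median ranged from -0.23 to -0.0159 with a library left out. Upper quartile scaling moved the median of all genes with siPOLR1D3 from 0.02 to 0.12. In SW480 the fatty acid median, 0.23, ranged from 0.0272 to 0.41 over the other settings and from 0.0913 to 0.29 with a library left out. The replicate block also changes which SCR libraries are compared, as the next paragraph says. Beyond that, the cause of these shifts was not tested.

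Same-numbered libraries did not deviate together throughout, with correlations from -0.13 to 0.03 (mean -0.03) in HT29 and from -0.41 to 0.57 (mean -0.09) in SW480, so the number names a library and the block is not a pairing. The later SCR libraries share their number with no silenced library and drop out of the contrast when the block is fitted. With the block, silenced libraries are therefore set against SCR 1 to 3 alone in SW480 and SCR 1 and 2 alone in HT29. All genes called then went from 0 to 735 in HT29, from 1011 to 0 in SW480, from 1225 to 20 with siPOLR1D2, from 992 to 728 with siPOLR1D3, from 498 to 39 between the siRNAs and from 6 to 36 for the interaction. The 1011 were 666 without a filter, 1993 with the side as a covariate, 0 within the first side and 1897 within the second. With the side as a covariate the 1225 were 2241 and the 498 were 213.

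None of the sign changes that follow concerned a called value. With the replicate block the log2 difference became -0.13 for LSS, 0.0627 for DHCR7 and 0.53 for ELOVL6 in HT29, and -0.0758 for SQLE, -0.16 for SREBF2, 0.0106 for STARD4 and -0.0578 for ELOVL6 in SW480. In HT29, LSS was -0.0032 with the highest row kept, and ELOVL6 0.032 with upper quartile scaling and 0.0046 with quantile normalization. In SW480, MVD was 0.0033 with upper quartile scaling and 0.20 within the second side, INSIG1 0.27 within the second side, and TM7SF2 -0.10 and ACSS2 0.33 within the first side. With a library left out, the ranges in HT29 were -0.15 to 0.0234 for DHCR7, -0.21 to 0.22 for ELOVL6, -0.0289 to 0.19 for LSS and -0.0502 to 0.29 for SQLE, and in SW480 -0.37 to 0.0092 for INSIG1, -0.15 to 0.033 for MVD and -0.047 to 0.0839 for SREBF2.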
